A study of Mus musculus with 12 samples.

Results

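The proteasome genes measured here are the 45 mouse genes on the array whose symbol begins with Psma, Psmb, Psmc, Psmd or Psme and a digit. They were taken by symbol alone, without regard to their values, out of the genes named by all non-control probes. A further 7 symbols of this form matched no probe. The 3 immune catalytic subunits Psmb8, Psmb9 and Psmb10 and the 2 subunits of the PA28 activator, Psme1 and Psme2, were described apart from the other 40. A filter on dim probes kept 43 of the 45 genes, among 23201 genes in all, and left out Psma8 and Psmb11.

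Retinas came from male C57BL/6 mice injected into the vitreous of the right eye at 5 weeks of age and taken 7 days later. The 4 particle groups received gold particles of 20 nm, gold particles of 100 nm, silicate particles of 20 nm or silicate particles of 100 nm, and the comparison group received PBS, so that every tube came from an injected eye and no untouched eye was measured here. Each group had 12 mice, and 4 retinas were pooled in a tube, which gave 3 tubes per group. Each of the 12 arrays carried 1 particle tube in Cy5 and 1 PBS tube in Cy3, and no dye was swapped. The difference between the dyes for a given probe and the effect of particles therefore cannot be told apart in any comparison with PBS, whereas this difference drops out between particle groups. The 4 arrays of a replicate number lay on the same slide, and the slide number equals the replicate number. The 4 PBS channels of a slide were treated as 1 PBS tube, which the labels do not state, so a mean over 12 arrays rests on 3 PBS tubes.

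The proteasome degrades proteins that have been tagged with ubiquitin. Its 20S core is a barrel of outer alpha rings and inner beta rings, and the beta rings hold the cutting sites, which are formed by Psmb6 (beta1), Psmb7 (beta2) and Psmb5 (beta5). The 19S cap, made of ATPases (Psmc genes) and non-ATPases (Psmd genes), recognises, unfolds and feeds in the tagged protein. Interferon gamma induces Psmb9, Psmb10 and Psmb8, which take the places of Psmb6, Psmb7 and Psmb5 in newly built immunoproteasomes, and it also induces Psme1 and Psme2, which form the PA28 ring that caps the core without ubiquitin. Immunoproteasomes are abundant in immune cells and favour the cutting of peptides for display on MHC class I molecules, whereas neurons mainly carry the constitutive form.

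Psmb8 and Psmb9 sit next to genes for peptide display. The sequences before their start sites are shown because the 5 immune and PA28 genes varied together in these retinas. On chromosome 17 the gene order was Psmb9, Tap1, Psmb8 and Tap2, with both Tap genes encoding the peptide transporter. On chromosome 14 it was Psme1, Emc9 and Psme2, and on chromosome 8 Psmb10 lay between Ctrl and Lcat. RefSeq promoters on build GRCm38.p6 were matched for 37 of the 43 measured members, and the 250 bases before each start were searched on both strands among 32851 promoters. Capitals mark the motif matches. For Psmb8, chr17:34197945-34198194 on the plus strand, they mark the core of a gamma-activated site (TTCNNNGAA). For Psmb5, its constitutive counterpart, chr14:54617996-54618245 on the minus strand, they mark the core of an antioxidant response element (TGACNNNGC). Psmb9 and Tap1 are read in opposite directions from the 225 bases between their starts, chr17:34187331-34187555, printed on the Psmb9 (minus) strand with a GC box (GGGCGG) and, read on the other strand, a CCAAT box.
Psmb8 promoter: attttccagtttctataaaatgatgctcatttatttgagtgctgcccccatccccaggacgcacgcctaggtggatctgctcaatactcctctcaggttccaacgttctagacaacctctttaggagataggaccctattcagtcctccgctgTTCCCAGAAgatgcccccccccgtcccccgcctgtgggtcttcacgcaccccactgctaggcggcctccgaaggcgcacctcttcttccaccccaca
Psmb5 promoter: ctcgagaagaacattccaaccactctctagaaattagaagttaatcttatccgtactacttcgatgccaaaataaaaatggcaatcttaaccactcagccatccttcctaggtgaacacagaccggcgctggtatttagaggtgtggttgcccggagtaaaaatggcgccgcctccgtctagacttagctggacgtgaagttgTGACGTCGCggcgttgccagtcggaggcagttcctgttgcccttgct
Psmb9 to Tap1 interval: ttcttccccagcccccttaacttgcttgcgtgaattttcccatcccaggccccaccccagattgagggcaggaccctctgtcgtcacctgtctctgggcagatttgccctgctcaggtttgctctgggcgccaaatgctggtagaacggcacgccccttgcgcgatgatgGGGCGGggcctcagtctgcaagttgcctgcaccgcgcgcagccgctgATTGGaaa

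TTCNNNGAA was found in 1 of the 5 immune and PA28 promoters and 0 of 32 other members, against 7.02% of all promoters. The core of an interferon-stimulated response element, GAAA, any 2 bases and GAAA, was found in 0 of 5 and 3 of 32, against 2.98%. TGACNNNGC was found in 0 of 5 and 5 of 32, against 10.2%, and the 5 were Psmb5, Psmb6, Psmc6, Psmd12 and Psmd9. GGGCGG was found in 3 of 5 and 19 of 32, against 32.7%, and CCAAT in 1 of 5 and 14 of 32, against 33.8%. These are letter matches in a fixed window, and binding was not measured.

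The 5 immune and PA28 genes had the widest spread of all members, and their values followed the slide. Psmb8, the immune counterpart of beta5, had log2 ratios of particle over PBS on slide 1 of -2.15 and -2.78 with gold (20 nm, then 100 nm) and of -1.73 and -2.05 with silicate (20 nm, then 100 nm). In the same order, slide 2 gave 0.72, 0.28, -0.14 and 0.05, and slide 3 gave -0.71, -0.95, 2.70 and 2.70. Psmb8 was thus low in every particle tube relative to PBS on slide 1, near PBS on slide 2 apart from gold 20 nm, and above PBS on slide 3 only in the 2 silicate tubes.

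Psmb9, the immune counterpart of beta1, gave -2.47, -2.91, -1.99 and -2.17 on slide 1 in the same order of groups, then 0.41, 0.20, -0.06 and 0.05 on slide 2 and -0.67, -0.74, 3.24 and 3.07 on slide 3. Psmb10, the immune counterpart of beta2, gave -0.97, -1.29, -0.93 and -1.12 on slide 1, 0.32, 0.20, -0.15 and 0.09 on slide 2, and -0.06, -0.26, 1.81 and 1.70 on slide 3. All 3 immune catalytic genes had the same order of slides and the same separation of silicate from gold on slide 3.

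Psme1 (PA28 alpha) gave -0.62, -0.79, -0.38 and -0.62 on slide 1, 0.21, 0.02, -0.14 and -0.04 on slide 2, and -0.19, -0.17, 1.53 and 1.30 on slide 3. Psme2 (PA28 beta) gave -1.04, -1.15, -0.86 and -1.10 on slide 1, 0.25, 0.20, 0.02 and 0.09 on slide 2, and -0.17, -0.20, 1.46 and 1.66 on slide 3. The array holds 10 spots of the Psme1 probe, and their SD within an array was 0.019 to 0.046, far below the spread between arrays. A second Psme2 probe gave a mean ratio of -0.05 against -0.07 for the first.

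**Figure D1:**
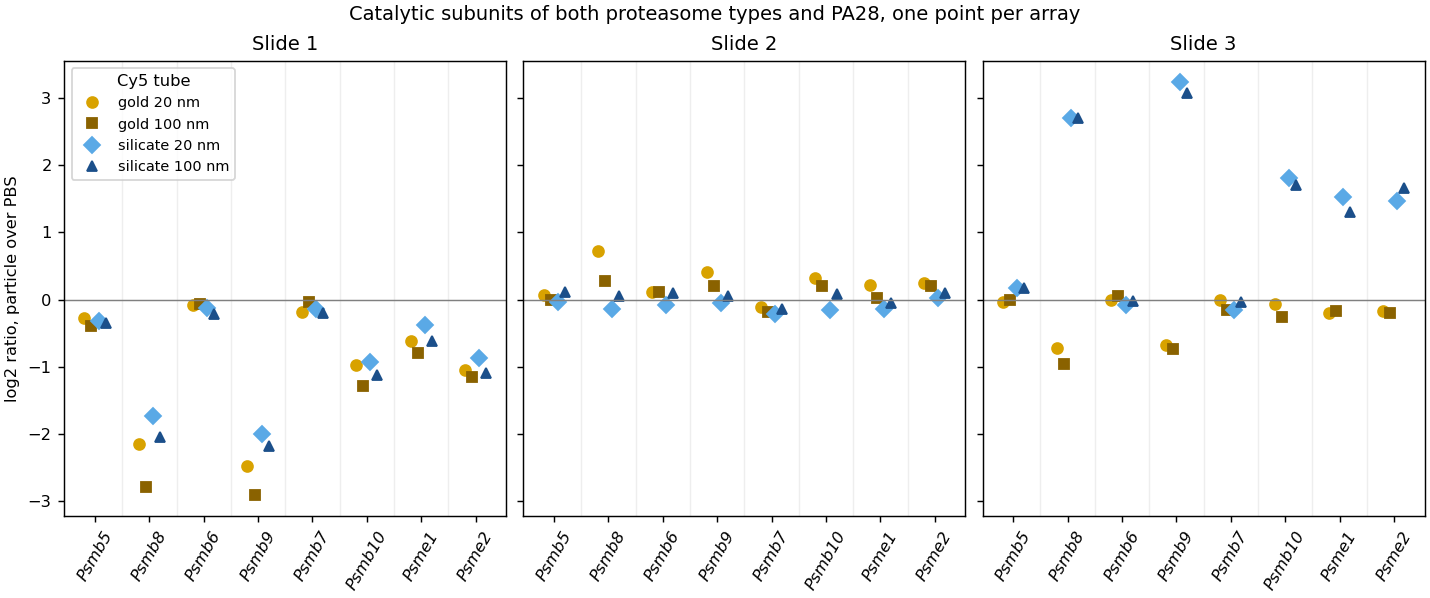
Log2 ratio of particle over PBS (vertical axis) for the catalytic subunits of the constitutive proteasome (Psmb5, Psmb6, Psmb7), their immune counterparts (Psmb8, Psmb9, Psmb10) and the PA28 subunits, 1 point per array, 1 panel per slide. The immune and PA28 genes lie below 0 on all arrays of slide 1 and above 1 in the silicate tubes of slide 3. Psmb5 (its brighter probe), Psmb6 and Psmb7 stay between -0.39 and 0.18 throughout.

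The ratios split into 2 parts when the channels were read separately, as normalized log2 intensities. The PBS level of Psmb8 was 11.89 ± 0.02 on slide 1, 8.95 ± 0.03 on slide 2 and 9.89 ± 0.07 on slide 3 (SD over the 4 arrays of a slide). The particle tubes of slide 1 lay at 9.14 to 10.13 and those of slide 2 at 8.80 to 9.70, so they overlapped. On slide 3 Psmb8 averaged 9.01 in the gold tubes and 12.65 in the silicate tubes. The high levels of this gene were thus in the PBS tube of slide 1 and the silicate tubes of slide 3.

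Psmb9 followed the same course, with PBS levels of 11.48 ± 0.01, 8.39 ± 0.03 and 9.50 ± 0.09 on slides 1, 2 and 3 and levels of 8.73 in gold and 12.72 in silicate tubes on slide 3. Psmb10 had PBS levels of 14.14 ± 0.04, 12.48 ± 0.04 and 12.86 ± 0.13, with 12.58 in gold and 14.73 in silicate on slide 3. Psme1 had PBS levels of 12.65 ± 0.02, 11.97 ± 0.02 and 12.11 ± 0.04, with 11.96 and 13.50 on slide 3. Psme2 had PBS levels of 14.63 ± 0.04, 13.32 ± 0.04 and 13.58 ± 0.08, with 13.46 and 15.08 on slide 3.

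All 5 genes were highest in PBS on slide 1 and lowest in PBS on slide 2. The range of the PBS level between slides was 3.09 for Psmb9, 2.94 for Psmb8, 1.66 for Psmb10, 1.32 for Psme2 and 0.68 for Psme1, against a median of 0.23 for the other 38 measured members and 0.31 for all genes. The widest of the other 38 was Psme3 at 0.76, above Psme1 and also highest in PBS on slide 1.

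**Figure D2:**
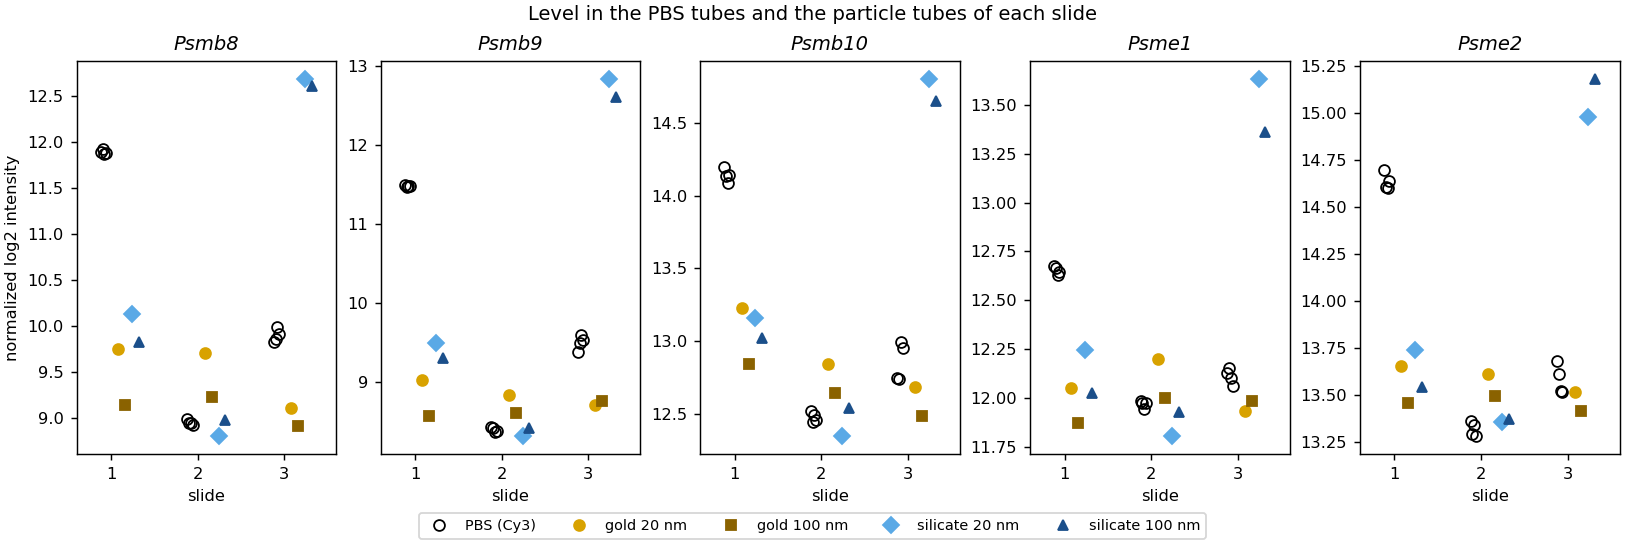
Normalized log2 intensity (vertical axis, scaled separately for each gene) of the immune and PA28 genes in the PBS channel (open circles) and the particle channel (filled symbols) of each array, by slide. The PBS tube stands high on slide 1 and the 2 silicate tubes stand high on slide 3, for example Psmb8 at 11.89 and 12.65.

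None of the 5 genes passed the threshold in any particle group (limma, Benjamini-Hochberg adjusted p under 0.05 over all 23201 genes). With n = 3 arrays, Psmb8 averaged -0.71 ± 1.44 (SD) with gold of 20 nm and -1.15 ± 1.54 with gold of 100 nm, and 0.27 ± 2.25 with silicate of 20 nm and 0.23 ± 2.38 with silicate of 100 nm, with limma adjusted p of 0.853, 0.733, 0.959 and 0.995. The SD exceeded the mean in every group. The median of the 5 genes was -0.32, -0.45, 0.27 and 0.22 in the same groups, against -0.01, -0.02, 0.01 and 0.01 for all genes. The sign of the silicate means rested on slide 3, since without it Psmb8 gave -0.94 at 20 nm, and Psmb9 gave -1.02 at 20 nm and -1.06 at 100 nm. Without slide 1, Psmb8 gave 0.00 and -0.34 in gold 20 nm and gold 100 nm.

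Gold against silicate over all 3 slides gave gold minus silicate differences of -1.19 ± 1.02 (SE) for Psmb8, -1.39 ± 1.13 for Psmb9, -0.57 ± 0.59 for Psmb10, -0.53 ± 0.41 for Psme1 and -0.56 ± 0.54 for Psme2, each with a limma adjusted p of 0.882. The same comparison called 0 members and 0% of all genes, with 1 member and 1204 genes at an unadjusted p under 0.05. The 100 nm particles against the 20 nm particles also called 0 members and 0% of genes, with 0 members and 230 genes at an unadjusted p under 0.05, and Psmb8 had the lowest 100 nm minus 20 nm difference at -0.24 ± 1.02 (SE).

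Within slides, silicate was set against gold with the 20 nm and 100 nm tubes of a material as its 2 replicates, a comparison chosen after the data were seen. On slide 3 it called 9 of the 43 members, 6 higher and 3 lower in silicate, against 29.4% of all genes, so the members as a whole were not called above the share of all genes. The 5 immune and PA28 genes were the 5 largest differences. Silicate exceeded gold by 3.86 ± 0.15 (SE) for Psmb9, 3.53 ± 0.22 for Psmb8, 1.91 ± 0.14 for Psmb10, 1.75 ± 0.10 for Psme2 and 1.59 ± 0.12 for Psme1, with limma adjusted p of 6.74e-07, 5.42e-06, 1.26e-05, 4.2e-06 and 1.62e-05. On the linear scale these were 14.5, 11.6, 3.76, 3.35 and 3.02 times. All 5 calls stood in each of 7 alternative treatments of the signals, filter and probes.

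The other slide 3 calls were small. Psma5, an alpha ring subunit, was 0.40 ± 0.10 (SE) higher in silicate (limma adjusted p = 0.0166). Psmd9, a chaperone of base assembly, differed by -0.38 ± 0.09, Psmc6, a cap ATPase, by -0.36 ± 0.07 and Psmc1, another cap ATPase, by -0.32 ± 0.09, all lower in silicate (limma adjusted p = 0.0148, 0.00654 and 0.0277). A second Psmd9 probe gave 0.12 and 0.17 in the silicate tubes of slide 3 where the first gave -0.25 and -0.32, so the 2 probes disagreed in sign.

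Slides 1 and 2 gave no member call between the materials. Slide 1 called 0% of genes, with 2 members and 1551 genes at an unadjusted p under 0.05, and slide 2 called 0.0172% of genes, with 1 member and 1048 genes at that p. The 5 immune and PA28 genes had differences above 0 on slide 1, with Psmb9 at 0.61 ± 0.15 (SE, limma adjusted p = 0.559), and below 0 on slide 2, with Psmb8 at -0.54 ± 0.22 (limma adjusted p = 1).

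**Figure D3:**
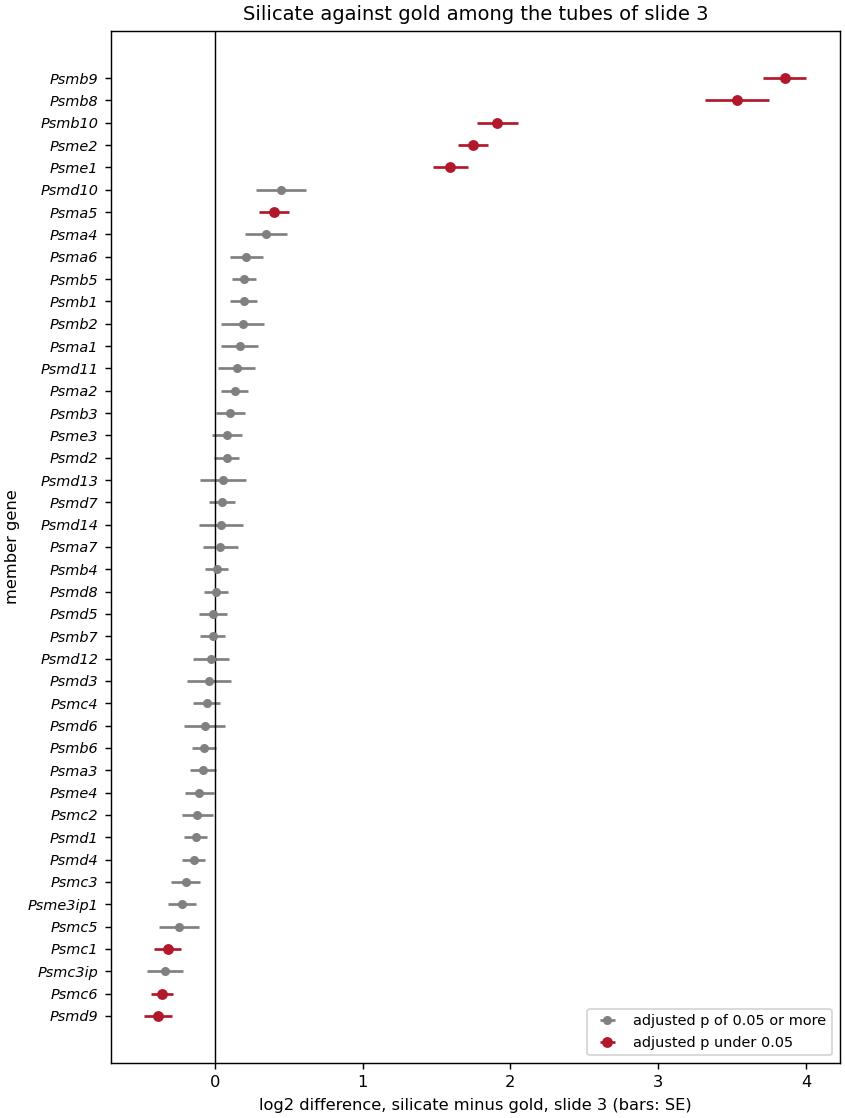
Difference between silicate and gold tubes of slide 3 for each measured member (horizontal axis, log2, bars are SE of the limma fit, 2 arrays per material), with the called members in red. Psmb9, Psmb8, Psmb10, Psme2 and Psme1 lie between 1.59 and 3.86 and every other member lies between -0.38 and 0.45.

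Markers of immune cells moved with these genes, and their part in the results was not tested. Of 17 macrophage and microglia markers, 16 had a probe and all 16 passed the filter, and 15 or 16 of the 16 were well above background in every tube. Their median log2 ratio was -2.33, -3.01, -1.55 and -2.40 on slide 1 (gold then silicate, 20 nm before 100 nm in each), 0.99, 0.35, 0.25 and 0.23 on slide 2, and -0.34, -0.70, 3.23 and 3.20 on slide 3. Their summed level, as log2, was 17.94 to 18.00 in the PBS channel of slide 1, 15.39 to 15.55 on slide 2 and 15.62 to 15.85 on slide 3. In the particle tubes the sum was 15.31 to 16.26 everywhere except the silicate tubes of slide 3, at 18.53 and 18.80. The macrophage markers were thus high in the same tubes as Psmb8 and Psmb9. In pooled tissue, more cells of a type and more RNA per cell cannot be told apart.

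Neutrophil markers, 9 of 10 with a probe and 8 passing the filter, had summed levels of 17.44 to 17.60 in PBS on slide 1, against 11.60 to 11.85 in PBS on slides 2 and 3, and 14.36 and 16.53 in the silicate tubes of slide 3. The other particle tubes lay between 11.52 and 13.88. In the PBS channel of slide 2 and the gold tubes of slides 2 and 3, 4 or 5 of the 9 were well above background, and Retnlg, Cxcr2 and Ngp were not. Of the T and NK cell markers, 10 of 11 had a probe and 5 passed the filter, and their sum ran from 12.61 to 12.93 in all other tubes and from 13.32 to 13.59 in the silicate tubes of slide 3. Cd3d, Cd3g, Cd8a, Cd8b1 and Ncr1 were not well above background in any tube of slide 2, and in the silicate tubes of slide 3 all of them were except Ncr1 in 1 tube. Gzma, a granule protease of cytotoxic cells, gave 3.41 and 3.85 there. The 12 rod markers, all well above background on every array, had median ratios of -0.87 and -0.93 in the silicate tubes of slide 3 and between -0.01 and 0.65 on the other 10 arrays. The 12 lens markers, from tissue next to the retina, also differed there, with median ratios of -1.63 and -2.10 in the gold tubes and 0.82 and 1.73 in the silicate tubes of slide 3.

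The peptide display and interferon gamma genes gave the same slide pattern as the immune subunits. Of 18 listed genes 16 passed the filter, and 0 passed the threshold in any particle group or over all 4, with 1 of 16 at an unadjusted p under 0.05 over all 4 groups. Their median ratio was -1.32, -1.58, -1.25 and -1.44 on slide 1, 0.34, 0.12, -0.08 and 0.03 on slide 2, and -0.19, -0.21, 1.72 and 1.31 on slide 3. Within slide 3, 15 of the 16 (93.8%) were called higher in silicate than in gold, against 29.4% of all genes called in either direction. Nlrc5, the activator of class I genes, differed by 4.27 ± 0.31 (SE) on its brighter probe. B2m, the class I light chain, differed by 4.19 ± 0.20, and Irf1, an interferon-induced transcription factor, by 3.95 ± 0.15. A second Nlrc5 probe, with a mean log2 intensity of 6.55 against 8.76, moved little. It gave ratios of 0.33 and 0.16 in the silicate tubes of slide 3 and 0.07 and 0.02 in the gold tubes.

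Tap2 gave 2.03 and 1.34 in the silicate tubes of slide 3 and -1.68 to -1.09 on slide 1. Tap1 did not pass the filter. Its PBS channel was well above background on slide 1, at levels of 8.11 to 8.18, where the particle channel was so on 1 of 4 arrays, and on slide 3 the particle channel of the 2 silicate tubes was well above background, with levels of 8.58 and 8.29. Ifng, interferon gamma itself, also did not pass the filter. Its particle channel was well above background only in the 2 silicate tubes of slide 3, at levels of 8.16 and 8.32, and the PBS channel of those arrays was not, so no ratio is given. In the PBS channel of slide 1, where the immune subunits were also high, the Ifng level was 6.36 to 6.54. On that slide this channel was well above background only on the gold 100 nm array.

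The constitutive catalytic subunits changed little beside their immune counterparts. Psmb5 gave -0.28, -0.39, -0.31 and -0.35 on slide 1, 0.07, -0.01, -0.04 and 0.11 on slide 2, and -0.03, -0.01, 0.18 and 0.18 on slide 3. A second, dimmer Psmb5 probe was lower, at -0.46, -0.62, -0.45 and -0.58 on slide 1 and below 0 on all 12 arrays. Psmb6 gave -0.07, -0.06, -0.13 and -0.22, then 0.11, 0.11, -0.08 and 0.10, then 0.00, 0.05, -0.07 and -0.02. Psmb7 gave -0.18, -0.03, -0.14 and -0.20, then -0.11, -0.18, -0.21 and -0.14, then -0.01, -0.15, -0.15 and -0.04, below 0 on all 12 arrays. The range over 12 arrays was 0.20 for Psmb7, smaller than for all but 0.888% of genes, and 0.33 for Psmb6, against 6.15 for Psmb9, 5.48 for Psmb8 and 3.10 for Psmb10. The median range of all genes was 0.62.

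Both core rings and most cap non-ATPases were below PBS on slide 1 with every particle. Leaving aside the immune and PA28 genes and the 2 genes that are no subunits, 26 of 36 members (72.2%) were below 0 on all 4 arrays, against 33.9% of all genes. They included 11 of the 14 non-ATPases and chaperones but 1 of the 6 ATPases, Psmc4. The 7 alpha ring subunits, Psma1 to Psma7, which form the gated outer rings, were all below 0 on each of these arrays, with medians of -0.32, -0.33, -0.30 and -0.25. The 7 constitutive beta subunits were also all below 0, with medians of -0.20, -0.24, -0.22 and -0.28. Both rings had medians between -0.10 and 0.07 on slide 2. Read by channel, every alpha subunit had its highest PBS level on slide 1, as did the constitutive beta subunits except Psmb6 and Psmb7. Psma3, for example, was at 15.12, 14.71 and 14.73 in PBS on slides 1, 2 and 3. It averaged 14.60, 14.64 and 14.87 in gold tubes and 14.63, 14.63 and 14.75 in silicate tubes. The part of the PBS tube in this shift was not tested. The 4 arrays of slide 1 were taken to share a PBS tube, so they are not 4 separate observations of a shift.

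**Figure D4:**
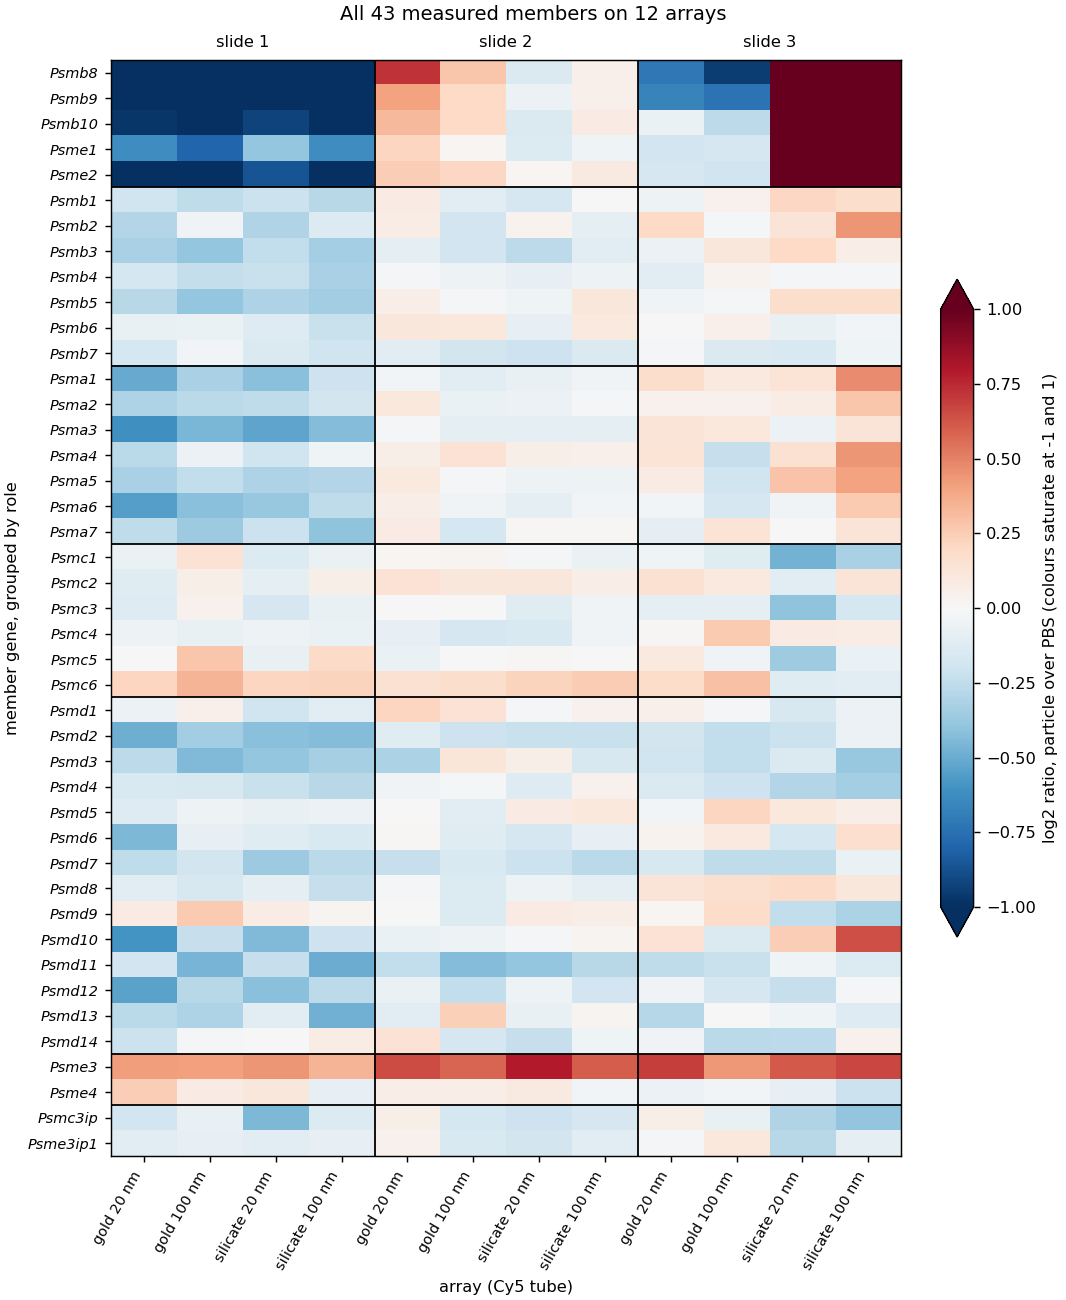
Log2 ratio of particle over PBS (colour, saturating at -1 and 1) of the 43 measured members (rows, grouped by role) on the 12 arrays (columns, grouped by slide). The immune and PA28 rows at the top change with the slide, the alpha and beta rows are pale blue on slide 1, and the Psme3 row is red on all 12 arrays.

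Over the mean of the 4 particle groups, 10 of 43 members (23.3%) passed the threshold against 14.8% of all genes, 2 of them higher than PBS and 8 lower. Psme3 was higher, and so, by a little, was Psmc6. The lower members were the non-ATPases Psmd2, Psmd3, Psmd4, Psmd7, Psmd11 and Psmd12, the catalytic subunit Psmb7, and Psmc3ip, a recombination factor named for binding the cap ATPase Psmc3 and no subunit itself. With the slide as a fixed block, which takes the differences between slides out of the error, 16 of 43 members passed, beside 8088 of all 23201 genes. With the slide as a random block, which allows for the shared PBS tubes, 1 member passed, beside 393 of all genes, and that was Psme3. Markers of tissue next to the retina and of blood moved in the same mean, and their part in it was not tested. Of 10 pigment epithelium markers 9 were measured and all well above background in every tube, with a median ratio of 1.07 and 6 of 9 called higher. Their summed level was 12.94 to 13.03 in PBS on slide 1, 14.66 to 14.71 on slide 2 and 15.71 to 15.77 on slide 3, and 14.90 to 16.94 over the particle tubes. Of 6 blood markers 3 were measured, with a median of -0.64 and 2 of 3 called lower, and 0 of either list passed with the slide as a random block. The summed blood level was 12.68 to 14.32 over the PBS channels and 12.19 to 14.07 over the particle tubes.

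Psme3 encodes PA28 gamma, a nuclear activator of the core that is related to Psme1 and Psme2 and is not induced by interferon gamma. Its log2 ratio was 0.42, 0.41, 0.44 and 0.34 on slide 1 (gold then silicate, 20 nm before 100 nm), 0.65, 0.58, 0.79 and 0.61 on slide 2, and 0.69, 0.43, 0.61 and 0.67 on slide 3. It was the only member above 0 on all 12 arrays, as were 3.79% of all genes. The mean was 0.55 ± 0.14 (SD, n = 12), or 1.47 times PBS, with a limma adjusted p of 6.08e-05, and 0.00221 with the slide as a random block. It passed the threshold in all 13 alternatives run for this mean.

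Psme3 was also the member called higher in each particle group alone. It gave 0.59 ± 0.15 (SD, n = 3) in gold 20 nm, where 1 member and 0.69% of all genes were called, and 0.47 ± 0.09 in gold 100 nm, where 1 member and 0.978% of genes were called. It gave 0.62 ± 0.18 in silicate 20 nm, with 2 members and 2.05% of genes called, and 0.54 ± 0.18 in silicate 100 nm, with 1 member and 0.974% of genes called. The limma adjusted p were 0.0182, 0.0439, 0.011 and 0.0252, and each call was lost when any 1 of the 3 slides was left out. The gold minus silicate difference was -0.05 ± 0.09 (SE, limma adjusted p = 0.914).

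The Psme3 level in PBS was 11.45 to 12.15 on slide 1, 11.08 to 11.29 on slide 2 and 10.99 to 11.33 on slide 3, and in the particle tubes it was 11.88 to 12.57, 11.66 to 11.92 and 11.68 to 11.84. The channels overlapped on slide 1 and did not on slides 2 and 3. The SD of Psme3 over the 4 PBS channels of slide 1, taken as 1 tube, was 0.32. That was the largest of the measured members on this slide, with Psmd9 next at 0.13. The gene rests on 1 probe, always with particles in Cy5, so a difference between the dyes for this probe and a particle effect cannot be told apart. Psme4, encoding the activator PA200, ranged from -0.22 to 0.24 with 6 of 12 arrays below 0.

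The cap non-ATPases were the group with the most calls over the mean of the 4 particle groups, 6 of 14 (42.9%), all lower, against 14.8% of all genes. With the slide as a random block 0 of the 14 passed. Psmd11, a scaffold subunit of the lid, averaged -0.28 ± 0.14 (SD, n = 12), and Psmd2, a large scaffold of the base that binds ubiquitin-like domains, averaged -0.26 ± 0.13, both below 0 on 12 of 12 arrays. Psmd7, the partner of the deubiquitinase Psmd14, averaged -0.22 ± 0.08, also below 0 on 12 of 12. Their limma adjusted p were 0.00233, 0.00458 and 0.00109, and 0.104, 0.0792 and 0.0868 with the slide as a random block. The linear ratios to PBS were 0.823, 0.833 and 0.857.

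Psmd2 gave -0.49, -0.35, -0.42 and -0.43 on slide 1, -0.12, -0.21, -0.22 and -0.22 on slide 2, and -0.19, -0.25, -0.21 and -0.06 on slide 3. Psmd11 gave -0.19, -0.47, -0.23 and -0.49, then -0.25, -0.44, -0.38 and -0.28, then -0.25, -0.22, -0.05 and -0.14. Psmd7 gave -0.25, -0.18, -0.36 and -0.27, then -0.23, -0.15, -0.21 and -0.27, then -0.16, -0.26, -0.25 and -0.06. The 3 genes were below PBS on every slide, with Psmd2 lowest on slide 1. Psmd7 was also called lower in silicate 20 nm alone, at -0.28 ± 0.08 (SD, n = 3, limma adjusted p = 0.0452, and 0.0982 with the slide as a random block).

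Psmd12, a lid subunit, averaged -0.21 ± 0.16 and was below 0 on 12 of 12 arrays, from -0.53 on slide 1 (gold 20 nm) to -0.02 on slide 3 (silicate 100 nm). Its second, dimmer probe averaged -0.06. Psmd3, a lid scaffold, averaged -0.22 ± 0.17 and was below 0 on 10 of 12 arrays, with a range of -0.44 to 0.12. Psmd4, a ubiquitin receptor, averaged -0.16 ± 0.12 and was below 0 on 11 of 12, from -0.34 to 0.04. Their limma adjusted p were 0.0252, 0.0236 and 0.0226, and 0.308, 0.33 and 0.256 with the slide as a random block. The median of the 14 non-ATPases was below 0 on every array, from -0.24 to -0.04.

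**Figure D5:**
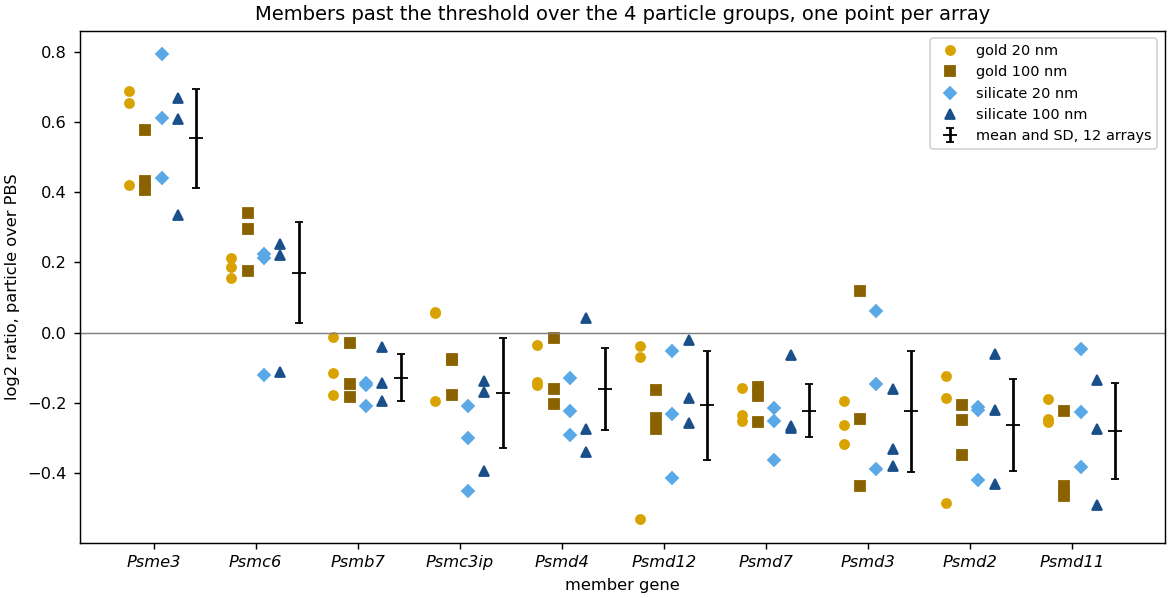
Log2 ratio of particle over PBS (vertical axis) for the 10 members past the threshold over the mean of the 4 particle groups, 1 point per array, with the mean and SD over 12 arrays as black bars. Psme3 lies between 0.34 and 0.79, Psmc6 reaches 0.34 on 1 array, and the 8 lower members lie between -0.53 and 0.12.

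The 6 cap ATPases, which form the ring that unfolds substrates, had medians between -0.09 and 0.10 on all arrays except silicate 20 nm on slide 3, at -0.24. Psmc6 gave 0.21, 0.34, 0.21 and 0.22 on slide 1, 0.16, 0.18, 0.22 and 0.25 on slide 2, and 0.19, 0.30, -0.12 and -0.11 on slide 3. It averaged 0.17 ± 0.14 (SD, n = 12, limma adjusted p = 0.0297, and 0.401 with the slide as a random block), and only the 2 silicate tubes of slide 3 were below 0. The alpha ring had 0 of 7 members past the threshold for this mean, with 0 at an unadjusted p under 0.05, and the constitutive beta ring had 1 of 7, Psmb7, at -0.13 ± 0.07 (limma adjusted p = 0.0148, and 0.324 with the slide as a random block).

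Psmd10, a chaperone of base assembly, was the most variable member outside the immune and PA28 genes, with a range of 1.24. It gave -0.59, -0.23, -0.44 and -0.21 on slide 1, -0.06, -0.05, -0.01 and 0.03 on slide 2, and 0.14, -0.15, 0.25 and 0.64 on slide 3, and its second probe reached 0.59 in the same silicate 100 nm tube. Psmc3ip averaged -0.17 ± 0.16 and was below 0 on 10 of 12 arrays (limma adjusted p = 0.0152, and 0.37 with the slide as a random block). Psme3ip1, which binds PA28 gamma and is no subunit, ranged from -0.27 to 0.11. The dimmer probes of Psmb5 and Psmc3 gave means of -0.30 and -0.21 where the brighter gave -0.07 and -0.10.

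For the core members not yet given singly, the range over the 12 arrays ran from 0.36 (Psmb4) to 0.98 (Psma1). The median range of all genes was 0.62, so some of these members varied more than a typical gene. In the alpha ring, Psma1 ranged from -0.50 to 0.48, Psma2 from -0.31 to 0.28, Psma3 from -0.61 to 0.13, Psma4 from -0.27 to 0.44, Psma5 from -0.32 to 0.40, Psma6 from -0.55 to 0.26 and Psma7 from -0.40 to 0.14. In the beta ring, the structural subunits Psmb1, Psmb2, Psmb3 and Psmb4, which hold no cutting site, ranged from -0.28 to 0.21, -0.30 to 0.44, -0.38 to 0.20 and -0.32 to 0.03. All of these minima lay on slide 1.

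In the cap, the ATPases Psmc2, Psmc4 and Psmc5 ranged from -0.12 to 0.15, -0.17 to 0.26 and -0.35 to 0.28. The base scaffold Psmd1 ranged from -0.20 to 0.21, the deubiquitinase Psmd14 from -0.27 to 0.15, and the assembly chaperone Psmd5 from -0.13 to 0.22. The lid subunits Psmd6, Psmd8 and Psmd13 ranged from -0.45 to 0.16, -0.23 to 0.19 and -0.48 to 0.24. None of these core and cap genes passed the threshold in any of the 7 contrasts over all slides.

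Psma8, the alpha subunit of the testis form, was well above background on 1 array in each channel, and Psmb11, the catalytic subunit of the thymus form, on 0 arrays. Of the remaining 43 members every probe was well above background in both channels on all 12 arrays.

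Of 28 listed genes that build, regulate or feed the proteasome 26 were measured, and 21 of them stayed within 0.5 of 0 on all 12 arrays. Nfe2l2, the transcription factor NRF2, followed the slides as the immune subunits did, at -1.87 to -1.46 on slide 1 and 1.40 and 1.83 in the silicate tubes of slide 3. Over the mean of the 4 particle groups 4 partners (15.4%) were lower and 0 higher, a share close to the 14.8% of all genes. Adrm1, a ubiquitin receptor of the cap, averaged -0.21 ± 0.17 (SD, n = 12), Rad23b, a shuttle for ubiquitin-tagged proteins, -0.24 ± 0.16, Ubqln4, another shuttle, -0.14 ± 0.12, and Vcp, the segregase that extracts tagged proteins, -0.12 ± 0.09. Their limma adjusted p were 0.0224, 0.0149, 0.0448 and 0.0249, and 0.238, 0.219, 0.424 and 0.419 with the slide as a random block. None passed in a single particle group, where 1 to 5 of the 26 had an unadjusted p under 0.05.

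Partners were also called between silicate and gold within slide 3, at 19.2% of the 26 against 29.4% of all genes. Nfe2l2 was 1.55 ± 0.13 (SE) higher in silicate, Sem1, a small lid subunit, 0.67 ± 0.16 higher and Psmg4, an assembly chaperone, 0.48 ± 0.08 higher. Ubb, which encodes ubiquitin, differed by -0.41 ± 0.10, lower in silicate. Their limma adjusted p were 3.35e-05, 0.013, 0.00217 and 0.0129.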

How the data were processed

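The deposited files hold scanner intensities of 12 Agilent 2-colour arrays, which per the file headers came from Feature Extraction 11.0.1.1 (the submitters' processing notes name 9.3.2.1). They also hold the authors' log10 ratios and a deposited table of log2 ratios, which had the scale and direction of those log10 ratios (slopes of 3.30 to 3.32 per array, column medians of 0.02 to 0.11) and whose centring is not stated. The 39429 probes had 43020 spots beside 1377 control spots, and no spot was saturated. Median intensities were corrected with normexp (offset 50) and normalized within arrays by loess in limma 3.58.1 (R 4.3.3), with control spots at weight 0 and 149 to 257 outlier spots per array left out. Spots of a probe were averaged. A probe stayed if either channel cleared the scanner's background flag on each of the 3 arrays of some group, and the brightest stood for its gene. Left out were 2 genes with no value in a group, and 36 kept genes lacked a value on some array.

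The 4 group means were fitted by limma with moderated variances, giving 7 contrasts, with Benjamini-Hochberg adjustment over 23201 genes and a threshold of 0.05. The slide numbers come from the file headers: deviations of same-slide arrays from their group means correlated at 0.888 to 0.934 on slide 1, 0.0806 to 0.83 on slide 2 and 0.553 to 0.919 on slide 3. The consensus correlation for the random block was 0.494. Single-channel levels used Aquantile. Alternatives were other signals, normalizations, filters and probe rules, the deposited log2 table, slide blocks and left-out slides. The fit was run on simulated data in which the arrays varied independently, unlike arrays that share a PBS tube. That run therefore cannot give the error rate of the fit under such sharing. The number of arrays limits the precision.

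Every member is named, with values by array for the immune, PA28 and catalytic genes, values by array or ranges for called members and members with the largest ratios, ranges for the rest, and partners and interferon genes where called, some of which are not reported here. The symbol rule uses no values, but this gene family and the other lists were chosen with earlier results of these data known. The labels give pooled retinas per tube, so no p-value measures the spread between single mice. In the fit of the group means, the arrays of a slide count as separate although they were taken to share a PBS tube. For the mean over the particle groups, each PBS tube is thus counted on several arrays. The slide as a random block allows for this sharing. Within slides, the spread is that between tubes of different particle size, so it includes any effect of size.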

Additional observations from a re-analysis of the deposited data

Results flagged for a closer look

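The difference between silicate and gold on slide 3 was larger in size than the mean of the same difference on slides 1 and 2 for 8 of the 43 members, by a limma test of that contrast, against 4462 of all genes (19.2%). The excess, in log2 units, was 3.71 for Psmb9 (adjusted p = 5.53e-06), 3.52 for Psmb8 (adjusted p = 3.81e-05), 2.01 for Psmb10 (adjusted p = 5.95e-05), 1.77 for Psme2 (adjusted p = 2.6e-05), 1.60 for Psme1 (adjusted p = 0.000101) and 0.46 for Psma5 (adjusted p = 0.0325). It was -0.36 for Psmc6 (adjusted p = 0.0233) and -0.39 for Psmd9 (adjusted p = 0.0441), the latter from the probe that the second Psmd9 probe contradicts. The immune and PA28 genes thus differed between the materials in the tubes of slide 3 by more than in the other tubes. Slide, tube and mice cannot be told apart. This contrast was chosen after the data were seen, so its adjusted p cannot serve as a test of that excess. The small and large particle tubes of a material stood in as its replicates.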

How the results depend on the processing

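No called value changed sign in the alternatives run. The number of members called was 1 in gold 20 nm, 1 in gold 100 nm, 2 in silicate 20 nm, 1 in silicate 100 nm and 10 over the mean of the 4 groups. With the slide as a fixed replicate block, which pairs the arrays of a slide, these became 2, 3, 7, 3 and 16. That block takes the differences between slides out of the error, so its calls leave out the spread between PBS tubes. With the slide as a random block silicate 20 nm gave 1 and the mean gave 1. With the strict filter, which tests fewer genes, the single groups gave 0, 0, 1 and 0. The deposited value table gave 0 in gold 100 nm and 1 in silicate 20 nm, keeping all dim probes gave 0 in gold 100 nm, and the processed signals gave 1 in silicate 20 nm and 6 for the mean. Leaving out 1 replicate gave 0 to 0 in each single group and 1 to 6 for the mean (2 without slide 1, 1 without slide 2 and 6 without slide 3). Without the silicate arrays of replicate 3, gold 100 nm, silicate 20 nm and silicate 100 nm gave 0. Fewer arrays entered the last 2 kinds of fit, and for the others the cause was not tested. Counts of members between materials, between sizes and within slides stayed within 1.5 times of the values given, and no block changed those between materials or sizes. Over all genes, gold against silicate went from 0 to 15 calls with the random block.

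For the mean of the 4 groups, Psme3 passed in 13 of 13 alternatives (adjusted p of 1.1e-05 to 0.0348), Psmd2 in 11, Psmd11 and Psmd7 in 10, Psmc6 in 9, Psmc3ip in 8, Psmb7 and Psmd4 in 6, and Psmd3 and Psmd12 in 5. The count over all genes for this mean was 3429, 8088 with the fixed block and 393 with the random block. For single groups the strict filter lowered the counts over all genes from 160, 227, 475 and 226 to 11, 63, 236 and 34, and the fixed block raised them to 1033, 1561, 2034 and 934. On slide 3 Psma5 and Psmc6 were called in 7 of 7 alternatives, Psmd9 in 6 and Psmc1 in 4. No scaling moved the median of all genes by more than 0.0855.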
